A study of Mus musculus with 8 samples.

Results

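The epidermal growth factor (EGF) receptor family and its ligands were compared between the limbus and the cornea of mouse eyes. Members were chosen by symbol, as 3 receptors (Egfr, Erbb2, Erbb3) and 7 ligands (Areg, Ereg, Hbegf, Tgfa, Btc, Epgn, Egf), and all 10 had reads, out of 17442 genes with reads. Both groups were wild type C57BL/6J mice of 8 weeks, with no treatment named in the sources used here. As described by the study, the groups differed in tissue only. One was the limbal rim, the ring between cornea and sclera that holds the epithelial stem cells. The other was the corneal button inside that ring. With 1 library per tissue, a difference of tissue and one of library preparation cannot be told apart. Tissue from several eyes was pooled, and its total RNA was sequenced with a stranded kit. The labels list 8 samples, 4 per tissue, but the deposited table was built from 2 libraries, 1 of each tissue, so there was no spread between replicates, no test was made, and no difference below has a replicate check.

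The ErbB receptors are tyrosine kinases that pair when a ligand binds and then pass the signal to the Ras, ERK and phosphatidylinositol 3-kinase pathways. Their EGF-like ligands are made as membrane-anchored precursors and are set free by cell surface proteases, so the mRNA of a ligand is only the first step of its supply. In the corneal epithelium this system is known for driving cell migration and division when a wound closes. Amphiregulin (Areg), epigen (Epgn), EGF and transforming growth factor alpha (Tgfa) bind EGFR, while heparin-binding EGF (Hbegf), betacellulin (Btc) and epiregulin (Ereg) also bind ErbB4.

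Epgn, Ereg, Areg and Btc lay side by side on chromosome 5 (GRCm38), and the ligands furthest apart between the tissues, Areg and Epgn, were both in that cluster. Their upstream stretches are shown because these ligands stood furthest apart, although Ereg lies between them. The stretches are RefSeq sequence of GRCm38.p6 that ends at the last base before the first annotated base of the gene, written 5′ to 3′ on the plus strand, and capitals mark the motifs that were found.
Epgn, chr5:91027267-91027463: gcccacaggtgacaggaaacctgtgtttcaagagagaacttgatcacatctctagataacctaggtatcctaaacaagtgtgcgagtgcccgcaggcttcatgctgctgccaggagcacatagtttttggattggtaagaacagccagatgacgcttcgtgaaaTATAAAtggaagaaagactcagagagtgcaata
Areg, chr5:91139349-91139598: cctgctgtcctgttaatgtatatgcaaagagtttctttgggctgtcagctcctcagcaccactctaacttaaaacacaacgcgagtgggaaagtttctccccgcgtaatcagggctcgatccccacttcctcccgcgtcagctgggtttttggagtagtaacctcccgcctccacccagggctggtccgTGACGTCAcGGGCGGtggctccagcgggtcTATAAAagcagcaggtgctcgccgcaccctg

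Both strands were searched for the letters of the TATA box, which are TATAAA, of the cAMP response element, which are TGACGTCA, of the GC box, which are GGGCGG, and of the AP-1 site, which are TGANTCA, and none of the matches overlapped another. In the Epgn stretch of 197 bases only TATAAA was found, 27 bases from its end. In the Areg stretch of 250 bases, TGACGTCA lay 53, GGGCGG 46 and TATAAA 25 bases from the end. Among 32851 RefSeq promoters cut to 250 bases, TATAAA was present in 12.4%, TGACGTCA in 1.55%, GGGCGG in 32.7% and TGANTCA in 6.75%. Cut to the first 197 of these bases, TATAAA was present in 9.05%, TGACGTCA in 0.798%, GGGCGG in 24.1% and TGANTCA in 5.45%. That cut leaves out the bases nearest each start, while the Epgn stretch runs up to the first annotated base of its gene. These shares are thus not from a like window. TATAAA was therefore shared by both stretches, and the other matches were in the Areg stretch. The 250 bases before Btc, which lies in the same cluster, held 0 matches to any of the 4 motifs. The GC content was 45.7% for the Epgn stretch and 57.2% for the Areg stretch. A match is a description of letters and not a site in use.

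The cornea library had 26104317 reads that fell on named genes, against 21182025 for the limbus library. Ratios are limbus over cornea on the log2 scale with each library scaled by its size factor (1.034 for the cornea, 0.967 for the limbus). The size factors were derived from the deposited means and are not printed in the deposited table. Brackets hold exact 95% Clopper-Pearson intervals, which cover counting error only since reads copied by PCR are not independent molecules. The table gave no tissue to either sign of its comparison, and the side was set by genes that the study's text places in 1 tissue (Krt12, Kera and Krt15 among them). In bulk tissue, fewer cells of a type and less RNA per cell cannot be told apart. Because some markers of corneal and limbal epithelium set the side, their direction is no separate check of the tissue labels. Summed over 4 markers each, corneal epithelium had a log2 ratio of -1.27 and limbal epithelium of 3.26. Summed markers of other tissues were higher in the rim, with log2 ratios of 2.45 for conjunctival epithelium and goblet cells, 8.30 for skeletal muscle, 3.37 for vessel endothelium, 2.33 for melanocytes, 1.67 for leukocytes and 0.71 for Schwann cells. The keratocyte markers were split, with 2 of 4 higher in the limbus (Ptgds 3.49, Dcn 0.64), Lum at -0.01 and Kera at -2.99, and their sum had a log2 ratio of 0.22. No marker of these 9 lists was at 0 in either library, although the goblet cell mucin Muc5ac had 1 read in each. How much these tissues add to the values of the family was not tested.

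Of the 10 members, 1 was at least 2-fold higher in the limbus with an interval that left out equality (Areg) and 2 were so in the cornea (Epgn and Btc). Among the 13862 genes with over 3 reads in each library, 14.7% met this rule toward the limbus and 8.66% toward the cornea. At 1.5-fold, 2 members (Areg and Tgfa) were past the fold toward the limbus and 3 (Epgn, Btc and Egf) toward the cornea, beside 19.8% and 20.5% of those genes. By the interval alone the members on each side were 4 and 5, beside 33.2% and 40.6% of those genes. The median log2 ratio of the members was -0.27, and that of all genes was -0.05. With 10 members, 1 gene moves such a share by 10 percentage points, so the counts set the family apart in neither direction.

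**Figure D1:**
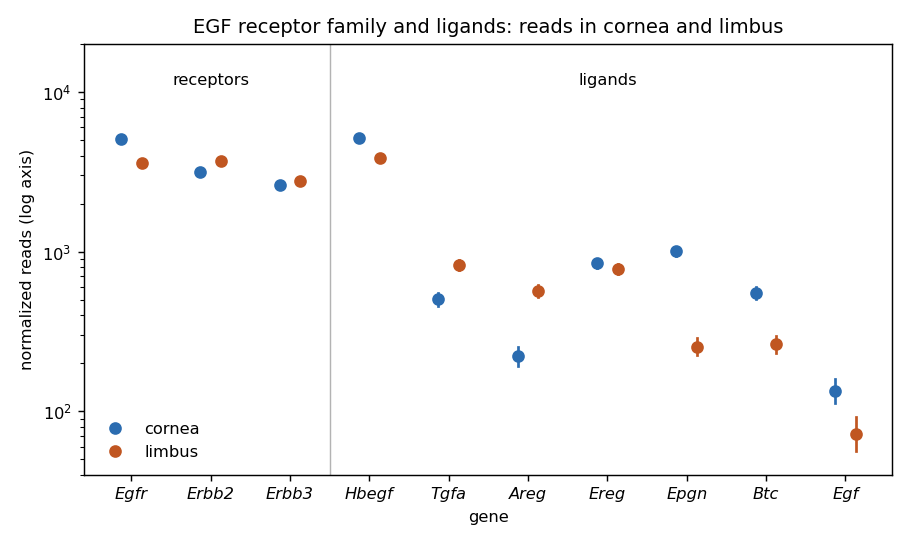
Normalized reads (log axis) of the 3 receptors and 7 ligands in the cornea and limbus libraries, 1 point per library, with bars for the exact 95% interval of the reads. The receptors and Hbegf lie highest in both libraries, and Areg and Epgn change places.

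Among the receptors, Egfr, which binds all 7 ligands, had 5238 cornea reads and 3471 limbus reads. After normalization these were 5067 and 3588, a log2 ratio of -0.50 [-0.56, -0.44], or 1.41-fold higher in the cornea. The gene lies at chr11:16752203-16918158 on the plus strand and overlaps the antisense gene Egfros. Of all genes compared, 25.5% had a ratio at least as far to the corneal side.

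Erbb2, the partner receptor for which no ligand is known, had 3283 cornea reads and 3563 limbus reads. Its log2 ratio was 0.21 [0.15, 0.28], 1.16-fold higher in the limbus, but it turned to -0.10 once the median of genes of like GC content was taken off (the GC correction, described with base composition further on). It lies at chr11:98412470-98437716 on the plus strand and overlaps the protein-coding gene Mien1 on the other strand. Erbb3, which binds neuregulins and has little kinase activity of its own, had 2710 cornea reads and 2689 limbus reads. Its log2 ratio was 0.08 [0.01, 0.16], or 1.06-fold, the closest to equality of the receptors. It lies at chr10:128567523-128589652 on the minus strand. Summed over the 3 receptors, the log2 ratio of reads was -0.11 [-0.15, -0.07], and its sign turned to 0.09 [0.05, 0.13] with scaling to total reads. Without the GC correction, Egfr alone of the receptors was on the corneal side. With it, Egfr (-0.15) and Erbb2 (-0.10) both were, and Erbb3 was at 0.19.

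**Figure D2:**
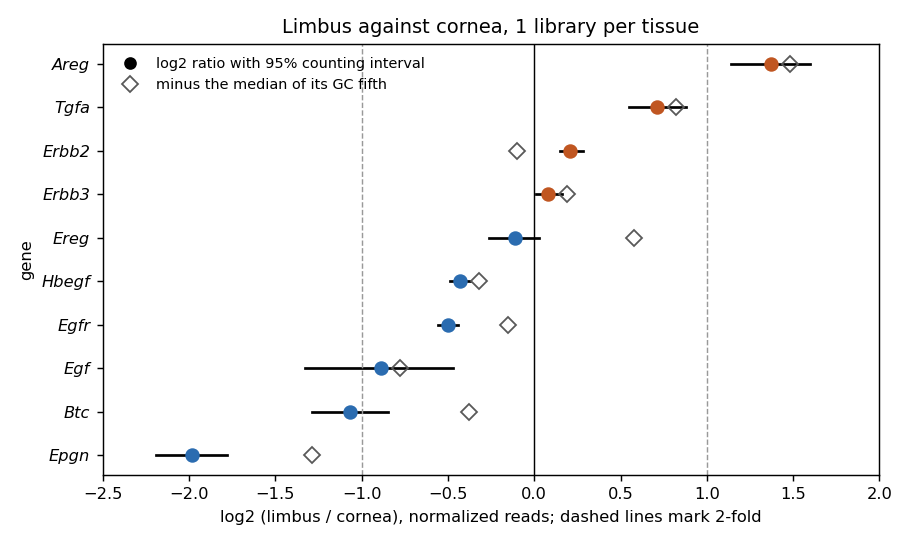
Log2 ratio of limbus over cornea of each member (filled points) with its exact 95% counting interval, dashed lines at 2-fold, and open diamonds for the ratio minus the median of genes of like GC content. Areg (1.37) lies past the limbal line and Epgn (-1.98) and Btc (-1.07) past the corneal line.

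On the limbal side of the ligands stood Areg and Tgfa. Areg, a ligand of EGFR that is made in many epithelia, had 228 cornea reads and 550 limbus reads (normalized, 221 and 569). The log2 ratio was 1.37 [1.14, 1.60], 2.58-fold higher in the limbus, and 12.1% of all genes lay at least as far to the limbal side. The gene lies at chr5:91139599-91148432 on the plus strand, directly after the stretch printed above. Tgfa, a ligand that corneal epithelial cells are known to make, had 519 and 797 reads (normalized, 502 and 824). Its log2 ratio was 0.71 [0.55, 0.88], 1.64-fold higher in the limbus, and its position is chr6:86195223-86275719 on the plus strand. In the limbus library the ratio of Areg reads to Tgfa reads was 0.69, against 0.439 in the cornea library.

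On the corneal side, Epgn was furthest from equality. This ligand, which binds EGFR with low affinity, had 1039 cornea reads and 246 limbus reads (normalized, 1005 and 254). Its log2 ratio was -1.98 [-2.19, -1.78], 3.95-fold higher in the cornea, and 1.26% of all genes lay as far or further to that side. With the GC correction it was -1.29. The gene lies at chr5:91027464-91035215 on the plus strand. Btc, which binds both EGFR and ErbB4, had 570 and 254 reads (normalized, 551 and 263). The log2 ratio was -1.07 [-1.29, -0.85], 2.10-fold higher in the cornea, but it was -0.86 with scaling to total reads and -0.38 with the GC correction, so that it no longer reached 2-fold. Btc lies at chr5:91357261-91402994 on the minus strand.

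Egf, the founding ligand of the family, was the least abundant member, with 139 cornea reads and 70 limbus reads. The log2 ratio was -0.89 [-1.33, -0.47], 1.86-fold higher in the cornea. It lies at chr3:129677565-129755316 on the minus strand, where it overlaps 3 antisense genes. Hbegf, a ligand released early in epithelial wounds, had 5354 and 3709 reads, the most of any ligand. After normalization these were 5179 and 3834, a log2 ratio of -0.43 [-0.49, -0.37], or 1.35-fold. Ereg, which binds EGFR and ErbB4, had 876 and 758 reads (normalized, 847 and 784). Its log2 ratio of -0.11 [-0.26, 0.03] was the only one among the members whose interval held equality, and its sign turned under other scalings (0.09 with total reads). Ereg lies at chr5:91074622-91093646 on the plus strand and overlaps the antisense gene Gm19610.

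The 4 ligands of the chromosome 5 cluster did not share a side. Epgn ends 39406 bases before Ereg begins, Ereg 45952 bases before Areg, and Areg 208828 bases before Btc, with 0 annotated protein-coding genes in each gap. Ratios of neighbours within a library do not depend on scaling between libraries, but no GC correction was made to them. Epgn, Ereg and Btc are in the same class of GC content and Areg is in another. With that correction the log2 ratio was 1.48 for Areg, -1.29 for Epgn and -0.38 for Btc. Areg thus lay less far from Epgn and from Btc than in the ratios below. For 1 read of Ereg there were 1.19 reads of Epgn in the cornea but 0.325 in the limbus, a log2 ratio of ratios of -1.87 [-2.12, -1.62]. For 1 read of Btc there were 0.4 reads of Areg in the cornea but 2.17 in the limbus, a log2 ratio of ratios of 2.43 [2.12, 2.75]. The pair furthest apart was Areg and Epgn, with 0.219 reads of Areg for 1 read of Epgn in the cornea and 2.24 in the limbus. Their log2 ratio of ratios was 3.35 [3.04, 3.66], or 10.2-fold, a pair that was chosen after the values were seen.

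The ligands were also set against their receptor. For 1 read of Egfr, Areg had 0.0435 cornea reads and 0.158 limbus reads, a log2 ratio of ratios of 1.86 [1.63, 2.10]. Tgfa had 0.0991 and 0.23 reads, with 1.21 [1.04, 1.39]. Epgn had 0.198 and 0.0709 reads, with -1.48 [-1.70, -1.27]. Measured this way Hbegf kept nearly the same proportion to Egfr in both tissues, at 1.02 reads in the cornea against 1.07 in the limbus (0.06 [-0.02, 0.15]). The ratio of ratios was -0.57 [-0.80, -0.35] for Btc, 0.38 [0.23, 0.54] for Ereg and -0.40 [-0.84, 0.03] for Egf. None of these values holds the GC correction. With it, the log2 ratio of limbus over cornea was -0.15 for Egfr, -0.32 for Hbegf and 0.82 for Tgfa. Hbegf then lay further to the corneal side than Egfr. Areg, Tgfa, Epgn and Btc came closer to Egfr, while Ereg and Egf moved further from it.

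**Figure D3:**
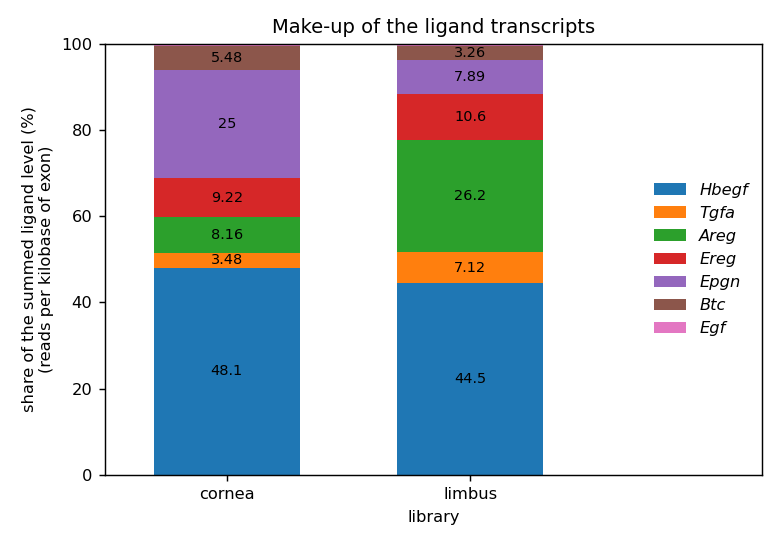
Make-up of the summed ligand level, in percent of reads per kilobase of exon over the 7 ligands, in the cornea and the limbus library. Hbegf is the largest block in both, and Epgn (25% and 7.89%) and Areg (8.16% and 26.2%) trade places.

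Levels of different genes were compared per length, as RPKM, the reads of a gene scaled by the length of its exons and by the reads of the library on named genes. In the cornea the order from the top was Hbegf (42.4), Erbb2 (24.1), Epgn (22.0), Egfr (17.7), Erbb3 (17.3), Ereg (8.13), Areg (7.19), Btc (4.83), Tgfa (3.06) and Egf (0.472). The intervals of Erbb2 and Epgn overlapped, as did those of Egfr and Erbb3 and those of Ereg and Areg. Overlap of separate intervals does not place a difference within counting error, and the order of these neighbours was not tested. In the limbus the RPKM order was Hbegf (36.2), Erbb2 (32.3), Areg (21.4), Erbb3 (21.1), Egfr (14.5), Ereg (8.67), Epgn (6.43), Tgfa (5.80), Btc (2.65) and Egf (0.293). There the intervals of Areg and Erbb3 and those of Epgn and Tgfa overlapped. Epgn stood at rank 3 in the cornea and at rank 7 in the limbus, and Areg at 7 and 3.

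Of the summed ligand level per length, Hbegf made up 48.1% in the cornea and 44.5% in the limbus. Epgn made up 25% and 7.89%, and Areg 8.16% and 26.2%. The rank of the most abundant ligand was thus the same in both tissues, and the ligand after it was Epgn in the cornea and Areg in the limbus. Ereg made up 9.22% and 10.6%, Btc 5.48% and 3.26%, Tgfa 3.48% and 7.12%, and Egf 0.536% and 0.36%. With the longest transcript as the length, Hbegf made up 59.2% and 55.5%, Epgn 18.9% and 6.04%, and Areg 6.0% and 19.6%. The summed RPKM was 88.1 in the cornea and 81.4 in the limbus for the ligands, and 59.1 and 67.9 for the receptors. RPKM is scaled by total reads, under which the summed receptor reads were on the limbal side too.

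**Figure D4:**
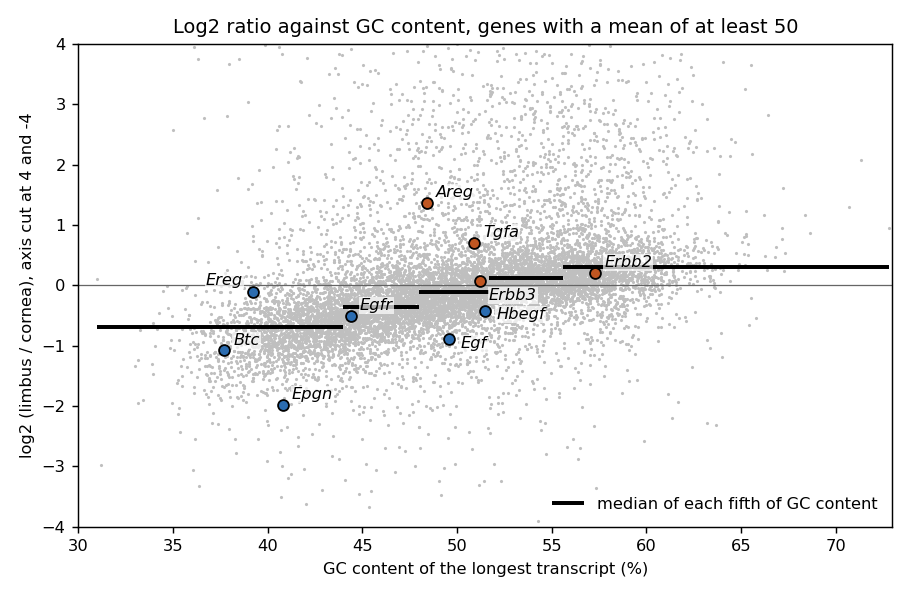
Log2 ratio of limbus over cornea against the GC content of the transcript, for genes with a mean of at least 50 and, by name, for the members. The medians of 5 classes of GC content climb from -0.69 to 0.31, with Areg and Tgfa above them and Epgn below.

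The base composition of the transcripts moved with the ratio over the whole table. Over 11132 genes, the median log2 ratio was -0.69 in the lowest of 5 equal classes of GC content and 0.31 in the highest. Pearson's r between GC content and ratio was 0.38 and Spearman's rho 0.55, across genes of the same pair of libraries, which are not independent replicates. The transcripts of Btc (37.7% GC), Ereg (39.2%), Epgn (40.8%) and Egfr (44.4%) were on the AT-rich side, and that of Erbb2 (57.3%) was the most GC-rich of the members. After the median of its GC class was taken off, the log2 ratio was 1.48 for Areg, 0.82 for Tgfa, -1.29 for Epgn and -0.78 for Egf. The same values were 0.58 for Ereg, -0.38 for Btc, -0.32 for Hbegf, -0.15 for Egfr, 0.19 for Erbb3 and -0.10 for Erbb2. Areg and Epgn thus stayed past 2-fold on their sides, Btc did not, and Ereg moved to the limbal side.

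Other genes of the pathway were described in 5 lists of 57 genes in all. ErbB4 and the neuregulins, the ligands of ErbB3 and ErbB4, formed the first list. Erbb4 had 2 cornea reads and 4 limbus reads, Nrg4 had 5 and 0, and Nrg3 had 0 in both, so that these 3 genes were at or near the limit of this depth. At 0 reads a library allows up to 3. Nrg2 had 318 and 145 reads, a log2 ratio of -1.04 [-1.33, -0.75], and was the 1 gene of the 5 past 2-fold (8.66% of all genes were so toward the cornea), which it did not reach with scaling to total reads or with centring on the median of all genes. The list median was -0.75.

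Of 7 genes of ligand shedding, 1 was past 2-fold toward the limbus and 0 toward the cornea, with a median of 0.36. Among all genes these shares were 14.7% and 8.66%, so 1 of 7 was near the share of all genes. Timp3, an inhibitor of the sheddase ADAM17, had 1290 cornea reads and 5749 limbus reads, a log2 ratio of 2.25 [2.16, 2.34]. Adam17, which cuts Areg, Tgfa, Hbegf, Ereg and Epgn from the membrane, had 2848 and 1791 reads, with a log2 ratio of -0.57 [-0.66, -0.49]. Adam10, the main sheddase of Btc and Egf, had 2341 and 1333 reads, with a log2 ratio of -0.72 [-0.81, -0.62]. Also in this list, Adam9 had a log2 ratio of -0.82, Rhbdf1 of 0.36 and Rhbdf2 of 0.75. By the interval alone, 3 genes of the list lay toward the limbus and 3 toward the cornea. With the GC correction, Adam10 was at -0.03, Adam17 at -0.22 and Adam9 at -0.47. Rhbdf1 was then at 0.05, Rhbdf2 at 0.44 and Timp3 at 2.6. Adam17, Adam10, Adam9, Rhbdf1 and Rhbdf2 were named after their values were seen. Whether shedding differed between the tissues was not tested.

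**Figure D5:**
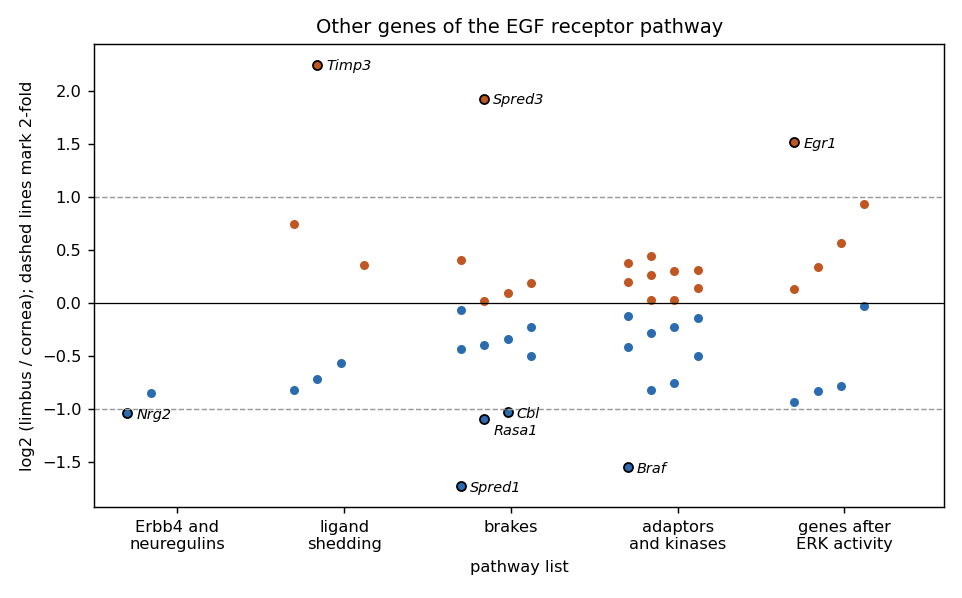
Log2 ratio of limbus over cornea of genes of 5 pathway lists with over 3 reads in both libraries, 1 point per gene, with dashed lines at 2-fold. Named points lie past 2-fold, with Timp3, Spred3 and Egr1 on the limbal side and 5 genes on the corneal side.

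Of 14 brakes on the receptors and on the Ras pathway, 1 was past 2-fold toward the limbus and 3 toward the cornea, with a median of -0.29. The shares of all genes were 14.7% and 8.66%. Spred1, an inhibitor of Ras signalling, had 1924 cornea reads and 543 limbus reads, a log2 ratio of -1.73 [-1.87, -1.59], or -1.04 with the GC correction. Rasa1, a GTPase-activating protein for Ras, had 1554 and 683 reads (-1.09), and Cbl, a ubiquitin ligase for EGFR, had 627 and 288 reads (-1.03). Spred3, of the same family as Spred1, had 7 and 25 reads, with a log2 ratio of 1.93 [0.68, 3.39]. The brake with the most reads was Lrig1, a negative regulator of ErbB receptors and a stem cell marker in epithelia, with 5814 cornea reads and 3850 limbus reads. Its log2 ratio was -0.50 [-0.56, -0.44], as for Egfr, but with the GC correction Lrig1 was at -0.62 and Egfr at -0.15. Rasa1 and Cbl no longer reached 2-fold with scaling to total reads or with the GC correction.

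Of 21 adaptors and kinases, 0 were past 2-fold toward the limbus and 2 toward the cornea, with a median of -0.13, and Hras was listed at 0 in both libraries. The shares of all genes stand at 14.7% and 8.66%. Braf, a kinase that Ras activates, had 2254 cornea reads and 718 limbus reads, a log2 ratio of -1.55 [-1.68, -1.43], or -0.86 with the GC correction.

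Of 10 genes that are known to be transcribed after ERK activity, 1 was past 2-fold toward the limbus and 0 toward the cornea, with a median of 0.05, beside 14.7% and 8.66% of all genes. Egr1, an immediate early transcription factor, had 800 cornea reads and 2141 limbus reads, a log2 ratio of 1.52 [1.40, 1.63]. The gene with the most reads was Phlda1, with 3343 and 3967 reads and a log2 ratio of 0.34 [0.28, 0.41]. By the interval alone, 4 genes of this list were toward the limbus and 3 toward the cornea, beside 33.2% and 40.6% of all genes. The list as a whole thus had no common side.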

How the data were processed

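Limbal rims and corneal buttons of wild type mice were pooled by tissue and sequenced as stranded total RNA. Per the study's methods, adaptors were trimmed and reads mapped to GRCm38 (mm10) in CLC Genomics Workbench 20, with normalization by trimmed mean of M-values. The strand setting of the counting was not given in the sources used here. The authors deposited a signal for each gene, the mean over libraries of size-factor-divided reads. The log2 fold change and its standard error that the authors deposited, both shrunken, were read only to choose between pairs of reads that the mean allowed. Their p-values, adjusted p-values and status column were not used.

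Of 40904 rows, 23420 named a gene and 5978 of these had a mean of 0. The 17484 rows without a name were left out. All 17442 other means were whole reads of 2 libraries to within 0.02 of a unit in which 1 cornea read is 102 and 1 limbus read 109, and 11299 of them allowed several pairs of reads. The mean allowed from 2 to 86 pairs for a member, and the chosen pair missed by at most 0.00013 in sum, while the next missed by at least 0.0624. Reads are thus derived values and not a deposited count table. On data simulated from the fitted model, all 3999 read pairs were found exactly, which tests the search and not the model. The table's accessions belonged to the named gene in only 2 of 18554 rows, so symbols alone were used.

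No test was run, since each tissue has 1 library. A gene was called at 2-fold with an interval that left out equality and with more than 3 reads in both libraries. Genes with 3 reads or fewer in a library were set to 3 reads as a bound for the list medians. Positions and exon lengths are from GENCODE M21, and upstream sequence is from RefSeq, where 7 of the 10 members matched. Named were the members and, of each pathway list, the genes past 2-fold and the gene with the most reads. The values of 2 genes that this rule named are not reported here and are not drawn, although the list counts hold them. The members and lists were chosen with earlier results of these data known. Alternatives were total reads, trimmed mean of M-values, median centring, a pseudocount of 1, means of at least 10 or 50, other folds, and other lengths. Python 3.11.15, numpy 2.4.6, scipy 1.17.1 and pandas 2.3.3 were used.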

Additional observations from a re-analysis of the deposited data

How the results depend on the processing

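No paired analysis was possible because the table holds no values of single samples, and for the same reason no replicate could be left out. Log2 ratios all shifted by 0.21 with total reads, 0.02 with a trimmed mean of M-values, 0.05 with centring and 0.13 with total reads without the 10 most abundant genes of each library. That last scaling and the GC correction were chosen after seeing the data. With total reads, 1 member was past 2-fold in the cornea, the member median was -0.07, the share of all genes past 2-fold in the cornea was 5.37%, and on that side the neuregulin list had 0 genes, the brakes 1 and the adaptors and kinases 1. Without the most abundant genes the same values were 1 member, -0.14, 6.42%, 0, 1 and 1. Centring left 0 genes in the neuregulin list. The GC correction left 1 member past 2-fold in the cornea, a median of -0.12, 4.48% of all genes, 1 brake, 0 adaptors and kinases, and 1 gene after ERK activity, and turned Erbb2 to -0.10. At 1.5-fold, 2 members were past the fold in the limbus, and 20.5% of all genes in the cornea. By the interval alone, 4 members (33.2% of all genes) lay toward the limbus and 5 (40.6%) toward the cornea. Of 60 member ratios under other scalings, 42 stayed within their counting interval and 18 did not, and the sign turned in 4, which were Erbb2 with the GC correction and Ereg with that correction (0.58), total reads (0.09) and total reads without the most abundant genes (0.02). Of 40 ranks of levels under other lengths or scalings, 38 were the same. Depth limited Egf most, with 139 and 70 reads.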
